A study of Mus musculus with 18 samples.

Results

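The CaM kinases and postsynaptic calcium genes are 10 mouse genes. They encode CaM kinases, proteins that bind calmodulin or calcium, postsynaptic scaffolds and, for Adap1, a protein that binds phosphoinositides in dendrites. They were chosen by gene symbol (Camk2a, Camk2b, Camk2d, Camk2g, Camk4, Nrgn, Vsnl1, Dlg4, Homer1 and Adap1) and make up 10 of the 32941 genes in each table. All 10 were present in all 4 tables. Gene expression had been measured by RNA sequencing in 18 mouse libraries of a study of peroxisomal ether lipids in the developing cortex. Wild-type brain at embryonic days 11, 12, 13, 14, 16 and 18 (E11 to E18) gave 1 library per stage. Primary neural stem cells with a Pex7 knockdown (Pex7sh) were set against cells with a scrambled hairpin, with 2 libraries each. PLAAT3-PEX11 overexpression was set against a wild-type control in a first set (PLA1 against Ctrl1) and in a second, neuron-named set (Neuron-PLA against Neuron-ctrl), again with 2 libraries per group. Both overexpression sets are labelled as brain, with no age, vector or promoter stated and nothing on how neurons were obtained. The Pex7sh libraries carry the genotype PEX7-knockdown and all controls the genotype WT. Whether the libraries of a group stem from different animals or cultures is not labelled. Each p-value between groups thus reflects library-to-library spread, which may be technical. With 1 library per stage, the p-values of stage slopes rest on the spread around a straight line in embryonic day. That spread holds any curve in the time course as well as noise.

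Calcium that enters through glutamate receptors is bound by calmodulin, and calcium-calmodulin switches on calcium/calmodulin-dependent protein kinase II (CaMKII), a ring-shaped enzyme built from mixed subunits. The alpha (Camk2a) and beta (Camk2b) subunits are the main forms in forebrain neurons, while gamma (Camk2g) and delta (Camk2d) are made in many cell types. Camk4 encodes a nuclear kinase that is switched on by CaM kinase kinases and phosphorylates the transcription factor CREB. Neurogranin (Nrgn) binds calmodulin when calcium is low, visinin-like 1 (Vsnl1) is a neuronal calcium sensor, PSD-95 (Dlg4) and Homer1 are scaffolds of the postsynaptic density, and Adap1 (centaurin alpha 1) is an Arf GTPase-activating protein that binds phosphoinositides in dendrites.

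RefSeq promoter windows on GRCm38.p6 (mm10) ran from 250 bases before to 50 bases after a start site. Windows of 7 of the 10 genes were scanned, and none of Camk2a, Camk2g or Camk4 was. Those of the 4 genes with the widest developmental range are shown, because they carry the developmental result: Nrgn at chr9:37552696-37552995, Camk2b at chr11:6065699-6065998, Adap1 at chr5:139325415-139325714 and the first of 2 Vsnl1 starts at chr12:11436529-11436828. All 4 lie on the minus strand and are written 5′ to 3′. Capitals mark matches, on either strand, to GGGCGG (the GC box) or CAGATG (an E-box, the kind of site bound by proneural transcription factors).
Nrgn: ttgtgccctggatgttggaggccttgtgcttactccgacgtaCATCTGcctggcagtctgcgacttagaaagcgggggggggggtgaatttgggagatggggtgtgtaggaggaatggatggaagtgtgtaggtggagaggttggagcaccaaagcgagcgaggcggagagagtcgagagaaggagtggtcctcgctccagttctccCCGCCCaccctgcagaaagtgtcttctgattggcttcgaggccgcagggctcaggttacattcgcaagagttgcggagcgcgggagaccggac
Camk2b: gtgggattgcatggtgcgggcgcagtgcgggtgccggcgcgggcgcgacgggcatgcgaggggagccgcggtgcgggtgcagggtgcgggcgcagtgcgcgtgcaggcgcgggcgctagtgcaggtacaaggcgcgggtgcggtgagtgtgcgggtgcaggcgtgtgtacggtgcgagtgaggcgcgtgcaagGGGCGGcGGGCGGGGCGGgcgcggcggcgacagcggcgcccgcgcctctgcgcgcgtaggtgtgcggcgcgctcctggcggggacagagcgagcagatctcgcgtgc
Adap1: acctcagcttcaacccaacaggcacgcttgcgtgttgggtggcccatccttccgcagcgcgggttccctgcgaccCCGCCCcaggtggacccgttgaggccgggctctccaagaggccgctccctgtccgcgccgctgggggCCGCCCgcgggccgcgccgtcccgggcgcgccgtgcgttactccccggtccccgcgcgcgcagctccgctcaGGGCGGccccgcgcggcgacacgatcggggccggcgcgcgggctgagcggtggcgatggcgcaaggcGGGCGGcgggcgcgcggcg
Vsnl1: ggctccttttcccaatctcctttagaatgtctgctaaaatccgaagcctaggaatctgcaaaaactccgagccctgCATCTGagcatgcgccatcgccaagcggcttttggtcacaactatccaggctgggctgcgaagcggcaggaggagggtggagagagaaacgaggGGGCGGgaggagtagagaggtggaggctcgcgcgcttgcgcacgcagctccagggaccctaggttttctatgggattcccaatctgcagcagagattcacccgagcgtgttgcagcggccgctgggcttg
The Adap1 window held 4 GC boxes and the Camk2b window held 3, of which a neighbouring pair shares a base. Nrgn and the first Vsnl1 start had 1 GC box and 1 CAGATG each. Of 27025 promoter windows of 300 bases, 35.9% held a GC box and 17.2% held CAGATG. Neither CAGCTG, another E-box (16.1% of windows), nor TGACG, a part of the cyclic AMP response element (21.0% of windows), occurred in these 4 windows. The first of 2 Homer1 starts held 3 TGACG matches, and the second held 1 CAGCTG. Among the other windows not shown, that of Camk2d held 3 GC boxes. The third of 3 Dlg4 starts held 2 GC boxes and 1 TGACG. Dlg4 starts 1 and 2 and the second Vsnl1 start held none of these motifs. A match is a run of letters in the window and does not show that a factor binds there.

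In the developing brain, 4 of the 10 genes rose by more than an order of magnitude between E11 and E18. The values below are RPKM (reads scaled by exon length and by library read total), with 1 library per stage. Camk2b stood at 0.849, 6.07, 10.9, 10.9, 32.4 and 70.7 RPKM at E11, E12, E13, E14, E16 and E18. It was the lowest but one of the 4 Camk2 genes at E11 and the highest from E16 on, with an 83.3-fold ratio of E18 over E11. Nrgn read 2.43, 1.97, 5.06, 5.05, 18.6 and 183 RPKM over the same stages, so that most of its 75.2-fold ratio came late, with E18 9.86-fold above E16. Vsnl1 had 0.459, 2.04, 4.16, 2.79, 7.94 and 41.3 RPKM, a 90.0-fold ratio of E18 over E11. Adap1 had 0.957, 3.75, 7.13, 6.65, 12.9 and 56.4 RPKM, a 58.9-fold ratio. Camk2b, Vsnl1 and Adap1 were lowest at E11 and Nrgn at E12, and all 4 were highest at E18. The thinnest of these values, Vsnl1 at E11, rested on 47 reads, with a 95% Poisson interval of 0.337 to 0.610 RPKM that covers counting error only.

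The other kinases moved over a narrower range. Camk2g was the most even of the CaMKII genes, with 8.79, 12.2, 12.4, 12.8, 14.5 and 18.2 RPKM from E11 to E18, and was the highest of the 4 at E11. Camk2a had 6.07, 9.58, 8.27, 7.30, 7.02 and 23.1 RPKM, so it stayed between 6.07 and 9.58 RPKM up to E16 and was 3.28-fold higher at E18 than at E16. Camk2d lay between 0.578 RPKM at E11 and 1.43 RPKM at E18, with no steady order in between. Camk4 had 0.480, 0.643, 1.498, 1.02, 1.65 and 2.76 RPKM, a 5.74-fold ratio of E18 over E11. Of the scaffolds, Dlg4 had 11.3, 20.5, 24.9, 25.1, 31.7 and 41.7 RPKM and was the highest of the 10 genes at E11. Homer1 stayed between 2.10 RPKM at E14 and 3.26 RPKM at E18. Gene-level values sum all Homer1 isoforms, including the short form known to be induced by activity, so the forms cannot be told apart here.

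**Figure D1:**
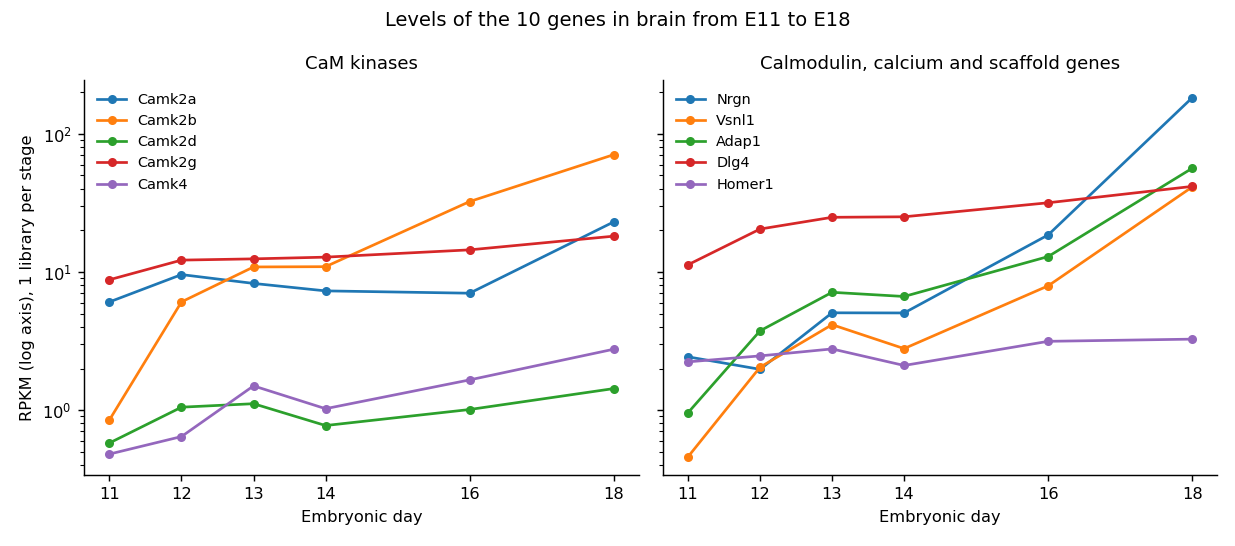
RPKM of the 10 genes (log axis) against embryonic day, 1 library per stage. The left panel holds the CaM kinases and the right panel the other members. Camk2b has 0.849 RPKM at E11 and 70.7 RPKM at E18, Nrgn has 2.43 and 183 RPKM at the same ends, and Homer1 stays between 2.10 and 3.26 RPKM.

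A straight line in embryonic day was fitted to log2(RPKM + 1) of every gene averaging 1 RPKM or more, using limma, and called at a Benjamini-Hochberg adjusted p under 0.05. Of the 9 genes tested, 7 rose with stage and 0 fell, against 45.1% of all 12921 genes called in either direction, 19.6% as rising and 25.5% as falling. The median slope of the 9 was 0.22 log2 units per day, against -0.02 over all genes. Nrgn had the steepest slope, 0.81 log2 units per day (SE 0.11, limma adjusted p = 0.00139), followed by Camk2b at 0.67 (SE 0.07, adjusted p = 0.000846). Vsnl1 and Adap1 rose by 0.61 and 0.60 per day, and their adjusted p-values by limma were 0.0011 and 0.00078. Slopes were smaller for Dlg4 (0.22), Camk4 (0.18) and Camk2g (0.11), each with an SE of at most 0.04. Camk2a (0.17, limma adjusted p = 0.0705) and Homer1 (0.06, adjusted p = 0.130) did not pass, and Camk2d had a mean under 1 RPKM and was not tested. Without the E18 library, 5 of the 9 passed, Camk2g and Camk4 did not (limma adjusted p 0.0791 and 0.0764), and the slope of Camk2a was -0.01. Calls were lost across the genome as well, with 20.9% of all genes called without E18, 10.8% as rising and 10.1% as falling. Without E16, the slope of Camk2a passed at 0.23 (limma adjusted p = 0.0144).

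Cell type markers moved along the same axis. The summed RPKM of 12 neuron markers was 1021 at E11 and 2882 at E18, with 8 of the 12 rising and 0 falling. The sum of 8 radial glia markers was 1026 at E11 and 645 at E18, with 1 rising and 6 falling. Fabp7 alone held 331 RPKM of the radial glia sum at E11 and 537 RPKM at E18. Summed erythroid markers stood at 5843 RPKM at E11 and 226 RPKM at E18, of which Hbb-y alone held 3958 and 0.174 RPKM. Of 4 erythroid markers tested, 3 fell and 0 rose. Summed microglia markers stood at 14.02 RPKM at E11 and 34.2 RPKM at E18, with 5 of 6 rising and 0 falling. Summed astrocyte markers were 3.05 RPKM at E11 and 26.7 RPKM at E18, with 2 of 3 tested rising and a median slope of 0.41 log2 units per day. Summed endothelium markers were 16.0 RPKM at E11 and 38.0 RPKM at E18, with 1 of 3 tested rising, and summed interneuron markers 178 RPKM at E11 and 108 RPKM at E18, with 3 of 6 falling. Neuron, radial glia and microglia lists had no marker at 0 at any stage. The part of these shifts in the slopes was not tested, and in bulk tissue fewer cells of a type and less RNA per cell cannot be told apart.

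RPKM is a level per length, so the 4 CaMKII genes can be set against one another within a library. Their sum was 16.3 RPKM at E11 and 113 RPKM at E18. Camk2g made up 54.0% of it at E11 and 16.0% at E18, while Camk2b made up 5.21% at E11, 33.3% at E13, 59.0% at E16 and 62.4% at E18. Camk2a made up 37.3% at E11, 12.8% at E16 and 20.3% at E18. The neuronal forms together (Camk2a and Camk2b) had 42.5%, 54.2%, 58.5%, 57.3%, 71.8% and 82.7% of the sum from E11 to E18. Their share correlated with embryonic day at Pearson's r = 0.978 (Spearman's rho = 0.943) over the 6 stages, and at r = 0.932 without E11 and E18. Each point is 1 library, and the correlation is given as a description. The exon model behind RPKM spans 22493 bases for Camk2d and 6401 to 9125 bases for the other 3 genes, so a share also depends on how much of each model is transcribed.

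**Figure D2:**
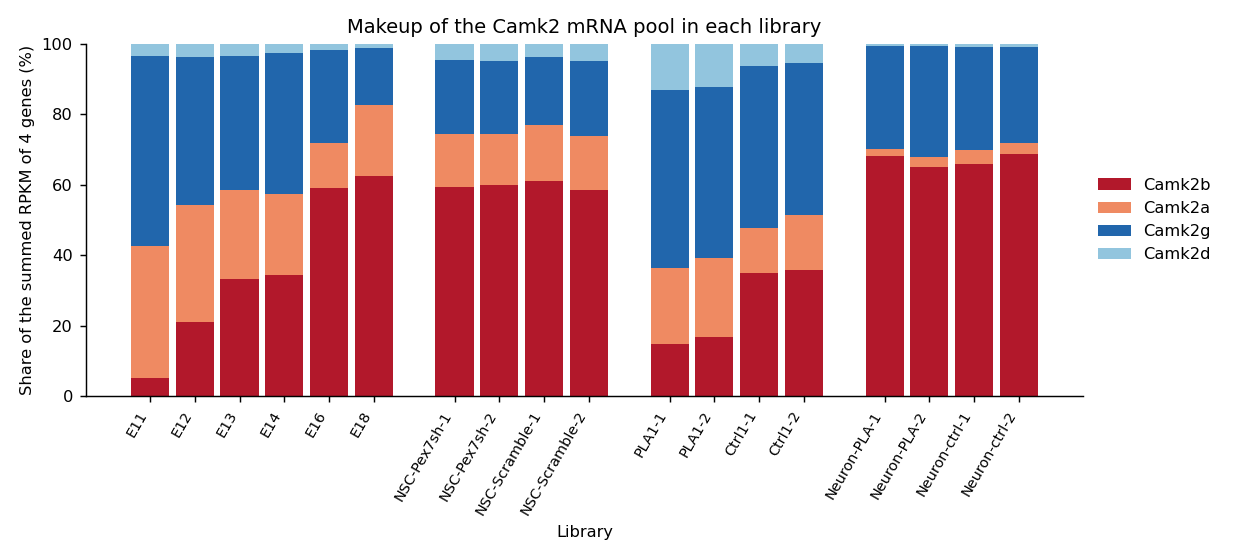
Makeup of the CaMKII mRNA pool: bars give the share (%) of Camk2b, Camk2a, Camk2g and Camk2d in their summed RPKM for each of the 18 libraries, 1 bar per library. Camk2b takes 5.21% at E11 and 62.4% at E18, and 14.7% and 16.6% in the PLA1 libraries, below 35.0% and 35.9% in the Ctrl1 libraries.

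Other genes of calmodulin and calcium signalling followed the same direction over the stages. Of 24 such genes tested, 22 rose and 1 fell by limma, with a median slope of 0.20 log2 units per day. Over all genes, 19.6% rose and 25.5% fell, with a median slope of -0.02. Camkv, a kinase-like protein that binds calmodulin, had 5.92 RPKM at E11 and 127 RPKM at E18 (slope 0.58, limma adjusted p = 0.000652). The CaMKII inhibitors Camk2n1 and Camk2n2 rose with slopes of 0.38 and 0.29. They had 3.54 and 18.2 RPKM at E11 and 37.2 and 87.6 RPKM at E18. Ncald, a neuronal calcium sensor related to Vsnl1, rose with a slope of 0.46 to 22.5 RPKM at E18. The kinases upstream of Camk4, Camkk1 and Camkk2, also passed, with slopes of 0.24 and 0.20, whereas Creb1 was the gene that fell (slope -0.12, limma adjusted p = 0.024). Creb1, Camkk1 and Camkk2 were picked for naming after their values were seen. Of 23 postsynaptic scaffold genes tested, 15 rose and 2 fell, with a median slope of 0.16. Dlg2 (PSD-93) rose by 0.43 per day and had 0.267 RPKM at E11 and 12.9 RPKM at E18. Dlgap3, Begain and Baiap2 rose by 0.31, 0.28 and 0.25 per day. The falling scaffold genes were Homer3 (-0.16) and Dlg1 (-0.10). Without E18, 12 calmodulin and calcium genes and 11 scaffold genes were called, all of them rising, and Creb1, Homer3 and Dlg1 no longer passed. Over all genes, 10.8% rose and 10.1% fell under that setting.

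In Pex7sh neural stem cells, 0 of the 10 genes passed the limma test against scramble. Across the genome 0% of 12482 genes were called, with 184 at an unadjusted p under 0.05 and none of those a member. limma-voom on recovered reads likewise called 0 genes, with 120 at an unadjusted p under 0.05. Pex7 itself read 0.5004 and 0.669 RPKM in the Pex7sh libraries and 1.19 and 1.22 RPKM in the scramble libraries. Its mean over these libraries was under 1 RPKM, so Pex7 was not tested. The neuronal CaMKII genes were well expressed in these cells. Camk2b had 54.1 and 55.6 RPKM with Pex7sh and 54.7 and 56.7 RPKM with scramble, and Camk2a had 13.8 and 13.4 RPKM with Pex7sh and 14.1 and 14.7 RPKM with scramble. Both Camk2a values were lower with Pex7sh, by less than could be called (log2 change -0.08, SE 0.07). Nrgn had 17.7 and 16.4 RPKM with Pex7sh and 16.0 and 15.4 RPKM with scramble, a change of 0.11 (SE 0.08). Dlg4 had 24.6 and 25.6 RPKM with Pex7sh against 23.3 and 25.7 RPKM with scramble. Homer1 had 9.04 and 9.77 RPKM with Pex7sh against 7.84 and 9.14 RPKM with scramble. In both scaffolds the groups overlapped.

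Several genes differed more between the scramble libraries than between the groups. Vsnl1 had 22.1 and 23.7 RPKM with Pex7sh, but 13.2 and 26.9 RPKM with scramble, and Adap1 had 26.0 and 25.9 RPKM with Pex7sh, but 22.7 and 33.9 RPKM with scramble. Each scramble value lay on a different side of the Pex7sh pair. The change of Vsnl1 was -0.23 without scramble library 1 and 0.76 without scramble library 2, and that of Adap1 was -0.37 without scramble library 1 and 0.19 without scramble library 2. Camk2d had 4.18 and 4.38 RPKM with Pex7sh against 3.43 and 4.56 RPKM with scramble, Camk2g had 19.0 and 19.4 RPKM with Pex7sh against 17.3 and 20.6 RPKM with scramble, and Camk4 had 4.14 and 5.03 RPKM with Pex7sh against 4.99 and 5.58 RPKM with scramble. In all 3 kinases the groups overlapped. The 10 log2 changes lay between -0.17 for Camk4 and 0.26 for Vsnl1, each with a limma adjusted p of 1.00. None of 24 calmodulin and calcium genes and none of 24 scaffold genes passed, by limma or limma-voom, and 0 of either list had an unadjusted p under 0.05. The cells labelled neural stem cells held neuron markers beside stem cell markers. Tubb3 had 379 and 396 RPKM with Pex7sh and 324 and 432 RPKM with scramble, while Nes had 66.3 and 61.9 RPKM with Pex7sh and 81.8 and 52.6 RPKM with scramble. Scramble library 2 was thus the higher of its pair in Tubb3, Vsnl1 and Adap1 and the lower in Nes.

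In the first overexpression set, Camk2b and Camk4 fell, and the CaMKII pool shifted away from Camk2b. Plaat3 had 31.4 and 29.1 RPKM in the PLA1 libraries against 0.413 and 0.431 RPKM in the Ctrl1 libraries. Camk2b had 1.93 and 2.58 RPKM with PLA1 and 6.91 and 7.14 RPKM with Ctrl1. Both PLA1 values lay far below both Ctrl1 values, with a ratio of means of 0.321 and a log2 change of -1.31 (SE 0.15, limma adjusted p = 0.00151). Camk4 had 2.34 and 2.00 RPKM with PLA1 and 4.34 and 4.27 RPKM with Ctrl1, so the groups did not overlap. Its log2 change was -0.75 (SE 0.15, limma adjusted p = 0.0112), and the call rested on 117 to 293 reads per library and was lost without Ctrl1 library 1 (log2 change -0.74, limma adjusted p = 0.0696) and without the filter on low values (adjusted p = 0.0672). These were 2 of the 9 members tested, with 0 rising, against 29.6% of all 11623 genes called in either direction, 16.3% as rising and 13.2% as falling. The median log2 change of the 9 was -0.02, against 0.06 over all genes.

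The other CaMKII genes did not pass the test in the first set. Camk2g had 6.68 and 7.50 RPKM with PLA1 and 9.09 and 8.57 RPKM with Ctrl1, a log2 change of -0.28 (SE 0.12, limma adjusted p = 0.116) with both PLA1 values below both Ctrl1 values. Camk2d had 1.73 and 1.91 RPKM with PLA1 and 1.21 and 1.07 RPKM with Ctrl1. Its groups were apart in the opposite direction, with a log2 change of 0.39 (SE 0.18, limma adjusted p = 0.130), and limma-voom on recovered reads called it at 0.67 (adjusted p = 0.00803). Camk2a overlapped between groups, with 2.85 and 3.51 RPKM with PLA1 and 2.54 and 3.08 RPKM with Ctrl1. As shares of the CaMKII sum, Camk2b held 14.7% and 16.6% with PLA1 against 35.0% and 35.9% with Ctrl1, and Camk2d 13.1% and 12.3% with PLA1 against 6.14% and 5.41% with Ctrl1. Camk2g was the largest part in every library of this set, at 50.6% and 48.4% with PLA1 and 46.0% and 43.1% with Ctrl1.

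The postsynaptic genes of the first set were near their lower end. Nrgn was listed at 0 in both PLA1 libraries and rested on 4 and 2 reads in the Ctrl1 libraries (0.135 and 0.0654 RPKM). No fold is given for it, and 0 reads allowed up to 0.157 and 0.142 RPKM in the PLA1 libraries by the 95% Poisson limit. Vsnl1 had 0.886 and 1.083 RPKM with PLA1 and 1.22 and 0.826 RPKM with Ctrl1, from 28 to 49 reads. Dlg4 had 2.48 and 3.13 RPKM with PLA1 against 2.69 and 2.03 RPKM with Ctrl1, and Homer1 had 1.12 and 1.77 RPKM with PLA1 against 1.37 and 1.496 RPKM with Ctrl1. These 3 genes overlapped between the groups. Adap1 had 1.28 and 1.49 RPKM with PLA1 and 2.33 and 1.53 RPKM with Ctrl1, a log2 change of -0.29 (SE 0.20) that did not pass.

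Among the other calmodulin and calcium genes, 10 of 22 tested fell in PLA1 and 2 rose, with a median log2 change of -0.37. Over all genes, 13.2% fell and 16.3% rose, with a median of 0.06. Gap43, a growth-cone protein that binds calmodulin, had 123 and 122 RPKM with PLA1 and 248 and 254 RPKM with Ctrl1 (log2 change -1.03, limma adjusted p = 0.000154). Ncs1, a neuronal calcium sensor, had 25.4 and 29.1 RPKM with PLA1 and 57.7 and 55.6 RPKM with Ctrl1 (log2 change -1.03, limma adjusted p = 0.000574). Camkv had 11.2 and 11.5 RPKM with PLA1 and 24.1 and 28.5 RPKM with Ctrl1, and the calmodulin gene Calm2 had 256 and 261 RPKM with PLA1 and 455 and 416 RPKM with Ctrl1. In each of these genes the groups lay apart. The risers were Ppp3cb and Ppp3r1, a catalytic and the regulatory subunit of the calcium-dependent phosphatase calcineurin, with log2 changes of 0.63 and 0.42; they were named after their values were seen. Neither riser passed without Ctrl1 library 1 or without PLA1 library 2. Without the filter on low values, 5 of 24 were called, all falling, against 2.57% of all genes falling and 2.8% rising. Of 18 scaffold genes tested, 0 rose and 2 fell, a falling share near the 13.2% over all genes. The 2 were Baiap2, an actin regulator of dendritic spines (log2 change -1.03, limma adjusted p = 0.00248), and the adhesion gene Nlgn3 (-0.77, adjusted p = 0.00533). The list median was 0.0004, with 9 of the 18 changes positive. limma-voom called 4 of the 18 scaffold genes, all falling, against 13.8% of all genes falling and 19.9% rising.

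Markers of cell types moved in the same comparison. Summed neuron markers were 397 to 404 RPKM in the PLA1 libraries and 753 to 772 RPKM in the Ctrl1 libraries, with 6 of 12 falling, 0 rising and none at 0. Summed microglia markers were 164 to 174 RPKM with PLA1 and 374 to 411 RPKM with Ctrl1, with 6 of 6 falling. Radial glia markers summed to 343 to 345 RPKM with PLA1 and 289 to 303 RPKM with Ctrl1, with 5 of 8 rising and 1 falling. Summed endothelium markers were under 1 RPKM in all 4 libraries, and none was tested. Interneuron markers summed to 15.0 to 18.1 RPKM with PLA1 and 34.3 to 34.4 RPKM with Ctrl1, with 2 of 4 tested falling. The part of these shifts in the fall of Camk2b and Camk4 was not tested.

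**Figure D3:**
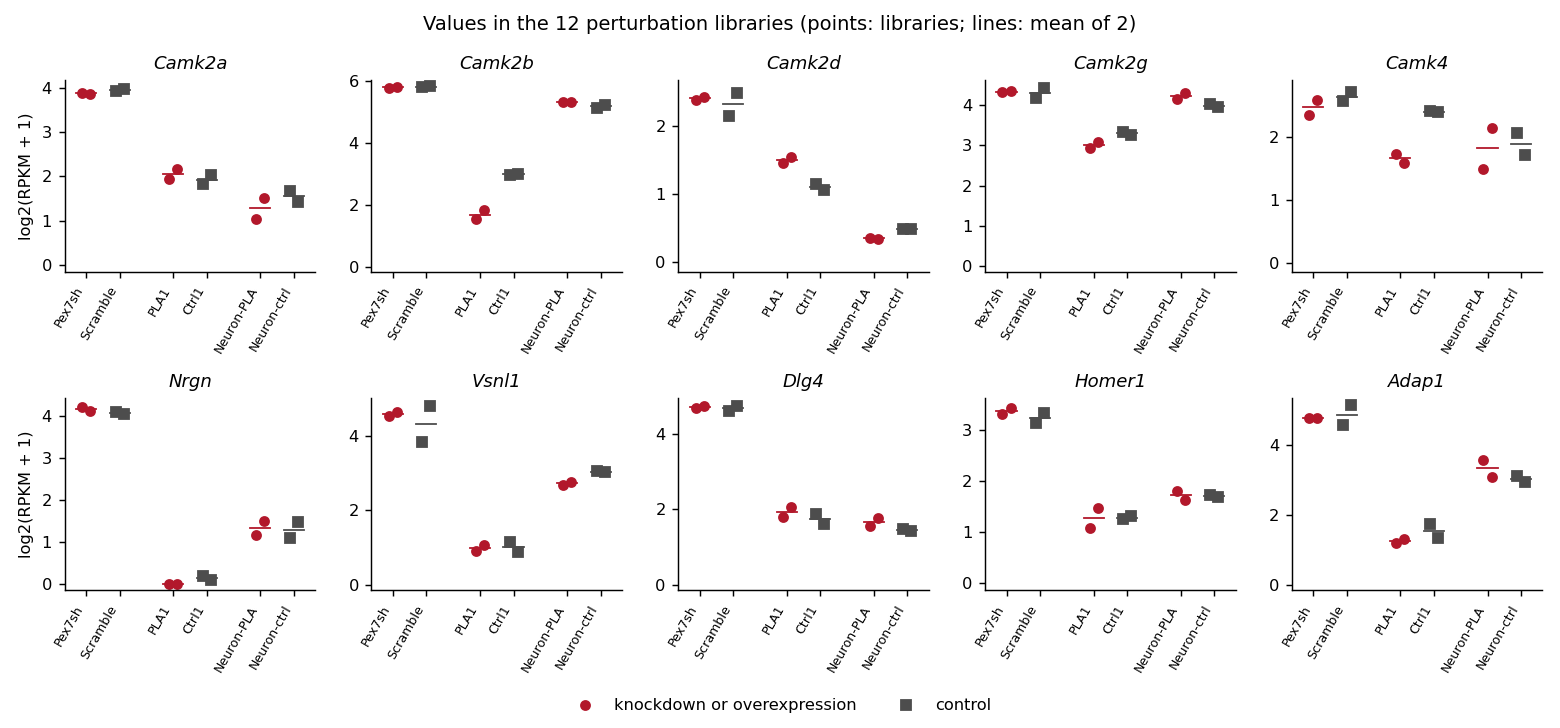
log2(RPKM + 1) of the 10 genes in the 12 knockdown, overexpression and control libraries, 1 point per library (circles: knockdown or overexpression, squares: control), with a line at the mean of each pair. Camk2b and Camk4 lie lower in PLA1 than in Ctrl1, and the Vsnl1 and Adap1 squares of the scramble pair lie wide apart.

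In the neuron-named set, 0 of the 9 members tested passed limma under the same overexpression, against 0.877% of 11179 genes (0.376% as rising and 0.501% as falling). No member had an unadjusted p under 0.05, and limma-voom called 0 with 1 at an unadjusted p under 0.05. Plaat3 had 19.0 and 20.8 RPKM in the Neuron-PLA libraries against 0.0699 and 0.230 RPKM in the Neuron-ctrl libraries. Camk2b was by far the highest of the 10 genes, with 38.9 and 39.0 RPKM with Neuron-PLA and 34.3 and 36.8 RPKM with Neuron-ctrl. Both Neuron-PLA values were the higher ones, with a log2 change of 0.13 (SE 0.09, limma adjusted p = 0.502). Camk2g had 16.9 and 18.9 RPKM with Neuron-PLA and 15.2 and 14.6 RPKM with Neuron-ctrl, also apart, with a log2 change of 0.25 (SE 0.12, limma adjusted p = 0.324). Camk2a was low, at 1.07 and 1.85 RPKM with Neuron-PLA against 2.20 and 1.69 RPKM with Neuron-ctrl, and its groups overlapped. Camk2d had 0.273 and 0.267 RPKM with Neuron-PLA against 0.402 and 0.395 RPKM with Neuron-ctrl, groups that lay apart, and its mean was too low for the test. Camk2b held 68.2% and 65.0% of the CaMKII sum with Neuron-PLA, and 65.8% and 68.8% with Neuron-ctrl, so the shares overlapped.

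None of the remaining members passed in the neuron set. Vsnl1 had 5.38 and 5.82 RPKM with Neuron-PLA and 7.23 and 7.11 RPKM with Neuron-ctrl, a log2 change of -0.31 (SE 0.14, limma adjusted p = 0.310) with the groups apart. Adap1 had 10.9 and 7.56 RPKM with Neuron-PLA and 7.64 and 6.68 RPKM with Neuron-ctrl, which overlapped. Camk4 had 1.81 and 3.45 RPKM with Neuron-PLA and 3.20 and 2.27 RPKM with Neuron-ctrl, so its Neuron-PLA libraries lay on either side of the controls. Nrgn (1.24 and 1.84 RPKM with Neuron-PLA, 1.14 and 1.77 RPKM with Neuron-ctrl) and Homer1 (2.50 and 2.10 RPKM with Neuron-PLA, 2.33 and 2.24 RPKM with Neuron-ctrl) overlapped as well. Dlg4 was higher in both Neuron-PLA libraries, at 1.96 and 2.40 RPKM with Neuron-PLA against 1.78 and 1.67 RPKM with Neuron-ctrl, with a log2 change of 0.22 (SE 0.21) that did not pass. By limma, 0 of 23 calmodulin and calcium genes and 0 of 19 scaffold genes passed, with 8 and 3 at an unadjusted p under 0.05. limma-voom called 1 and 2 of them, against 3.17% of all genes. Over all 11179 genes, 0.877% passed limma and 1976 had an unadjusted p under 0.05.

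Markers of several other cell types were lower with Neuron-PLA, while those of neurons were not called. Summed neuron markers were 1640 to 1758 RPKM with Neuron-PLA and 1689 to 1702 RPKM with Neuron-ctrl, with 0 of 12 called, whereas 5 of 6 interneuron markers fell. Their sum was 63.1 to 65.5 RPKM with Neuron-PLA against 118 to 119 RPKM with Neuron-ctrl. The sum of 8 radial glia markers was 162 to 201 RPKM with Neuron-PLA and 309 to 318 RPKM with Neuron-ctrl, and 2 of the 6 that were tested, Hes5 and Fabp7, fell. The 5 endothelium markers summed to 1.29 to 1.70 RPKM with Neuron-PLA and 19.2 to 19.8 RPKM with Neuron-ctrl, with Tek at 0 in the Neuron-PLA group, and the 1 tested, Cldn5, fell (log2 change -2.94, limma adjusted p = 0.000666). Summed microglia markers were 66.2 to 75.6 RPKM with Neuron-PLA and 116 to 118 RPKM with Neuron-ctrl, with 1 of 6 falling. Summed erythroid markers were 27.6 to 39.4 RPKM with Neuron-PLA and 79.8 to 85.0 RPKM with Neuron-ctrl, with 1 of 2 tested falling. Summed astrocyte markers were 10.3 to 10.9 RPKM with Neuron-PLA and 16.0 RPKM in both Neuron-ctrl libraries, with 0 of 3 tested called. Of that sum, Aldh1l1 alone held 6.48 and 7.22 RPKM with Neuron-PLA and 12.5 and 12.1 RPKM with Neuron-ctrl. The groups overlapped for Gfap, Aqp4, Slc1a2 and S100b, so the lower sum was not shared across the list. The part of these shifts in the members' values was not tested.

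**Figure D4:**
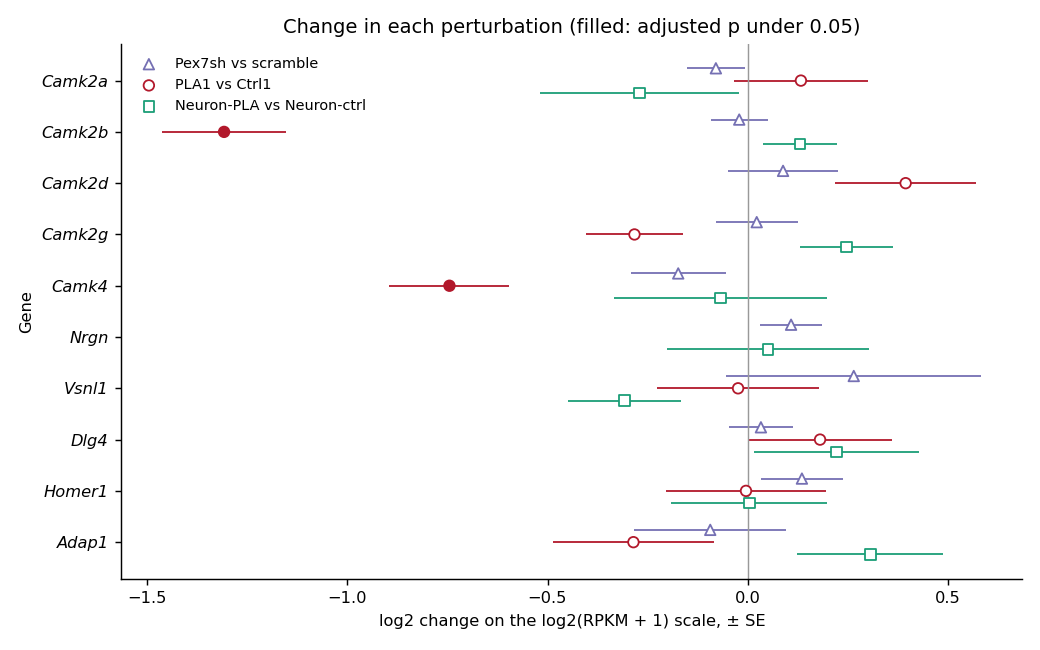
log2 change of each gene on the log2(RPKM + 1) scale with its standard error, for Pex7sh against scramble (triangles), PLA1 against Ctrl1 (circles) and Neuron-PLA against Neuron-ctrl (squares); filled points have a limma adjusted p under 0.05 and genes below the mean filter are left out. The filled points are Camk2b at -1.31 and Camk4 at -0.75 in the PLA1 comparison.

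The overexpression effect on Camk2b differed between the sets. The change in the first set minus the change in the neuron set was -1.44 log2 units (SE 0.17, limma interaction adjusted p = 0.000991), and it lay between -1.58 and -1.30 when any 1 of the 8 libraries was left out. Camk2b was the 1 called gene among 8 members tested, a share near the 11.7% of 11705 genes called in either direction. Over all genes, 6.19% were called with a higher and 5.48% with a lower change in the first set. Camk2g came next at -0.53 (SE 0.16, limma adjusted p = 0.0653), which passed under median-ratio scaling (-0.58, adjusted p = 0.0440). Camk4 had a difference of -0.68 (SE 0.32, adjusted p = 0.205) and Adap1 of -0.59 (SE 0.28, adjusted p = 0.211), so for these genes a difference between the sets was not shown. Of 22 calmodulin and calcium genes, 6 differed, all with the lower change in the first set. Camkv (-1.32), Ncs1 (-1.21), the CaM kinase I family gene Pnck (-1.07) and Gap43 (-0.96) were those of smallest adjusted p. Among 19 scaffold genes, Baiap2 had the lower change in the first set (-1.18) and Dlg3 the higher one (0.81). limma-voom called 4 of the 19, 3 with the lower and 1 with the higher change. Over all genes it called 6.31% with the lower and 6.71% with the higher change. Dlg3 passed with all libraries, and with either PLA1 library 1 or Neuron-PLA library 2 left out, but not with any 1 of the other 6 left out. Of the 12 neuron markers 6 differed in the same direction as Camk2b, with a list median of -0.60 against 0.04 over all genes. Of 8 radial glia markers, 4 differed in the opposite direction, with a list median of 0.75 and 8 of 8 differences positive. The 1 endothelium marker tested, Cldn5, also had the higher change in the first set (2.92), as had the 1 astrocyte marker tested, Aldh1l1 (0.90). Of 6 microglia markers, 1 differed in the direction of Camk2b, with a list median of -0.57 and 0 of 6 differences positive. None of 6 interneuron markers and none of 2 erythroid markers passed. The part of these markers in the difference of Camk2b was not tested.

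Levels set across the 4 tables are a description, because the tables were normalised separately. In Neuron-ctrl, Camk2b averaged 35.5 ± 1.8 RPKM (SD, n = 2), next to 32.4 RPKM in E16 brain, and Camk2g 14.9 ± 0.45 RPKM next to 14.5 RPKM. Dlg4, in contrast, averaged 1.72 ± 0.079 RPKM in Neuron-ctrl and 2.36 ± 0.47 RPKM in Ctrl1, next to 31.7 RPKM at E16 and 24.5 ± 1.6 RPKM in the scramble cells. Nrgn averaged 1.46 ± 0.45 RPKM in Neuron-ctrl and 15.7 ± 0.42 RPKM in scramble cells, next to 18.6 RPKM at E16, and rested on 4 and 2 reads in Ctrl1. The CaM kinase II inhibitor gene Camk2n2 shared this pattern in the control libraries of both overexpression sets. It had 0.416 and 0.570 RPKM in Neuron-ctrl and 0.303 and 0.184 RPKM in Ctrl1, against 62.1 and 88.0 RPKM in scramble cells and 47.9 RPKM at E16. Camk2n2 was named here after its values were seen. Across 12436 genes, the log2 difference between Neuron-ctrl and E16 correlated with the GC content of the longest transcript at r = -0.34, across 12742 genes that of Ctrl1 at r = -0.329, and across 13064 genes that of scramble cells at r = -0.204. Set against E16, Neuron-ctrl differed by -3.59 log2 units for Dlg4 (33.6th percentile of GC content) and by -2.99 for Nrgn (91.6th percentile). The difference was -0.772 for Adap1 (97.3rd percentile) and 0.131 for Camk2b (70.6th percentile). Genes are not independent replicates, and the part of GC content in the low Dlg4, Nrgn and Camk2n2 values was not tested.

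Genes whose values followed each member most closely were sought among 9875 genes averaging 1 RPKM or more in every table, over all 18 libraries after each table's own mean had been taken off on the log2(RPKM + 1) scale. The points share tables and include 6 stages without replicates, so each r is a description. Camk2b was closest to Hs3st4 (r = 0.992), Pik3cd (0.987) and Cnrip1 (0.987). Nrgn was closest to Ncald (0.983), and Adap1 to Dlg2 (0.984). Vsnl1 was closest to Pitpnm1 (0.985). Dlg4 followed Trim3 (0.968), Camk2g followed Sema4f (0.969) and the AMPA receptor auxiliary subunit gene Cacng2 (0.965), and Camk4 followed AI854703 (0.935). Camk2a reached 0.930 with Aplp2, Camk2d 0.883 with AU040320 and Homer1 0.859 with Lrrc8b, so these 3 had the loosest companions.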

How the data were processed

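Total RNA (Trizol, 2 ug per library) was sequenced, per the labels' protocols, and the submitters' processing notes name STAR 2.7.9a, HTSeq 0.6.0 and mm10. The 4 deposited tables hold RPKM that the authors computed, a unit read from the values, since no header names it. RPKM multiplied by merged exon length (GENCODE M21, 32009 of 32941 genes, 97.2%) and a read total per library gave whole reads, within 0.01, for 97.5% to 97.8% of values. Depth was 41501880 to 54373317 reads at the 6 stages and 16147911 to 28104927 reads in the other 12 libraries. The stage libraries have no replicates, although the design text speaks of triplicates.

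Each comparison was fitted within its own table with limma 3.58.1 (R 4.3.3, trended variance) on log2(RPKM + 1), for genes averaging 1 RPKM or more, with Benjamini-Hochberg adjustment over all genes tested and a threshold of 0.05. Fold changes on this scale understate the change of low genes. The stage test was a slope on embryonic day, and the interaction was the difference between the overexpression effects. Fits were tested on simulated data. Alternatives were a pseudocount of 0.1 RPKM, no filter, median-ratio scaling, limma-voom on recovered reads, replicate number as a block, stage rank and leaving out each library. The test planned for the trend of the Camk2a and Camk2b share is a score over the members, so its p is not given.

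Members, gene lists and tests were chosen with earlier results of these data known. Named were all 10 members, up to 4 called genes of smallest adjusted p per list and comparison, and the 3 genes most like each member. Camk4 exons overlap an antisense gene over 72 bases (2.21% of its exon length), and whether reads were counted by strand is not given in the sources used here. Percent shares, sums and Poisson intervals were computed from the deposited RPKM and the recovered reads. Values of some genes that these rules reach are not reported here.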

Additional observations from a re-analysis of the deposited data

Results flagged for a closer look

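The overexpression effect differed between the first set and the neuron set, by the limma interaction test itself, for Camk2b (-1.44 log2 units, adjusted p = 0.000991) among the members. On the calmodulin and calcium list the same test passed for Gap43 (-0.96, limma adjusted p = 0.000305), Camkv (-1.32, adjusted p = 0.000516), Ncs1 (-1.21, adjusted p = 0.000526) and Pnck (-1.07, adjusted p = 0.00453). On the scaffold list it passed for Baiap2 (-1.18, limma adjusted p = 0.0044) and, in the other direction, for Dlg3 (0.81, adjusted p = 0.0349). A negative value means that the change was lower in the first set. Dlg3, a synaptic scaffold related to PSD-95, had 6.73 and 7.80 RPKM with PLA1 against 7.51 and 6.62 RPKM with Ctrl1, and 2.45 and 2.90 RPKM with Neuron-PLA against 4.94 and 5.62 RPKM with Neuron-ctrl.

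Camk2d differed from its control in opposite directions in the sets, with every library on its own side. The ratio of means was 1.59 for PLA1 over Ctrl1 and 0.678 for Neuron-PLA over Neuron-ctrl. This difference was not tested at the mean filter, and without the filter the limma interaction was 0.53 (adjusted p = 0.156).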

How the results depend on the processing

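Of 455 member changes recomputed under another setting, 422 kept their direction and their side of the threshold, 4 lost and 3 gained a call, and 26 changed sign. None of the 26 was called under the settings of the report. Outside the left-out libraries these were Homer1 under limma-voom, at -0.0114 in the neuron set and 0.002 in the interaction. With 1 library left out, the changes of sign gave ranges in Pex7sh of -0.0459 to 0.0037 for Camk2b, -0.0752 to 0.25 for Camk2d, -0.10 to 0.14 for Camk2g, -0.23 to 0.76 for Vsnl1, -0.0328 to 0.10 for Dlg4 and -0.37 to 0.19 for Adap1. In PLA1 they gave -0.17 to 0.12 for Vsnl1 and -0.20 to 0.19 for Homer1, and in Neuron-PLA -0.40 to 0.26 for Camk4, -0.14 to 0.24 for Nrgn and -0.0841 to 0.0922 for Homer1. The stage slope of Camk2a ranged from -0.0055 to 0.23, and the interaction from -0.18 to 0.10 for Dlg4 and -0.20 to 0.18 for Homer1. Members called were 1 to 2 in PLA1 and 5 to 8 over the stages with 1 library left out, 1 in PLA1 without the filter, and 2 in the interaction with median-ratio scaling. Genes called with 1 library left out were 1584 to 3216 in PLA1 (3438 with all libraries), 9 to 102 in Neuron-PLA (98), 2701 to 5477 over the stages (5828) and 628 to 1222 in the interaction (1367). Without the filter they were 1177 in PLA1, 0 in Neuron-PLA and 761 in the interaction, and limma-voom called 353 in Neuron-PLA. The labels give same-numbered samples nothing in common but the number, and their deviations correlated at 0.01 in Pex7sh, 0.099 in PLA1 and 0.047 in Neuron-PLA. With the number as a block, 1 gene was called in Pex7sh, 4297 in PLA1, 54 in Neuron-PLA and 1438 in the interaction, and no call of a member changed. Counts of the gene lists under these settings were added after the data had been seen. The lowest members of the first set rested on few reads, 0 to 4 for Nrgn and 28 to 49 for Vsnl1, and whether depth bears on the absence of a call for Vsnl1 was not tested.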
